A study of Homo sapiens with 4 samples.

Results

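Iron storage, uptake and heme breakdown were followed through 10 genes, HMOX1, FTL, FTH1, TFRC, SLC40A1, SLC11A2, NCOA4, IREB2, ACO1 and BLVRB, out of 34080 genes to which the deposited transcripts could be assigned. The genes were chosen by their function, with the Doxy(+) against Doxy(-) result of these same data already known, so their values are given as a description and without a test. All 10 were among the 13569 genes that passed the low-count filter.

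HK-2, a human proximal tubule line, carried a Tet-On system in which doxycycline switches on HA-PRCC-TFE3, an HA-tagged fusion of the PRCC and TFE3 proteins found in a form of renal cell carcinoma. Polyadenylated RNA was sequenced from 2 Doxy(+) cultures, kept with 0.2 microg/ml doxycycline for 24 h, and from 2 Doxy(-) cultures without it. All 4 carried the transgene and grew in advanced DMEM/F-12 with a low serum content and the same antibiotics. No HK-2 culture without the transgene was analysed here, so doxycycline itself and PRCC-TFE3 cannot be told apart. The labels do not say whether the lines are clones, nor what the numbers 1 and 2 of the libraries mark, and the spread between libraries may be technical.

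Iron enters most cells bound to transferrin through the transferrin receptor and leaves the endosome through the transporter encoded by SLC11A2. What is not used is caged in ferritin, a shell of H and L chains, and is released when NCOA4 carries ferritin to the lysosome. Heme oxygenase frees the iron of heme, and a pair of iron regulatory proteins adjusts this traffic after transcription by binding a stem-loop, the iron responsive element, in the messenger RNAs of ferritin, of the exporter ferroportin and of the transferrin receptor. Kidney tubule cells take up filtered transferrin and heme proteins and are rich in ferritin and heme oxygenase when loaded with them.

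The stem-loops are shown because the same element stands in transcripts whose levels behaved differently between the groups. The main coding transcript of each gene in GENCODE 44 was searched on its own strand for a stretch of 27 bases with an unpaired C, an upper stem in which all 5 pairs match (G with T included) and a loop of 6 bases starting CAGTG. FTL (1 match) and SLC40A1 (1 match) carried it in the 5′ UTR and TFRC (4 matches) in the 3′ UTR, FTH1 had 1 match, and HMOX1, SLC11A2, NCOA4, IREB2, ACO1 and BLVRB had 0. Of all 89067 protein-coding transcripts in the annotation, which differ in length, 0.803% held a match. Counted by gene, 1.53% of the 19702 genes with a protein-coding transcript held a match. The sequences below are read 5′ to 3′ on the gene's strand, from hg38 positions chr19:48965336-48965362 (FTL), chr2:189580662-189580688 (SLC40A1) and, for TFRC, chr3:196050980-196051006, chr3:196050576-196050602, chr3:196050511-196050537 and chr3:196050464-196050490. Capitals mark the loop.
FTL: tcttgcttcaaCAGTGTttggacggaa
SLC40A1: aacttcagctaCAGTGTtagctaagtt
TFRC element 1: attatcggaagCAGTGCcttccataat
TFRC element 2: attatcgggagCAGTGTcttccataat
TFRC element 3: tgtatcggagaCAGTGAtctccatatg
TFRC element 4: attatcgggaaCAGTGTttcccataat
The loops of FTL, SLC40A1 and TFRC elements 2 and 4 have the same letters, and those of TFRC elements 1 and 3 differ from them in the last base alone. A match describes letters and does not show that a protein binds, and a transcript without a match may hold an element of another form.

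The estimated counts summed to between 14042545 and 16618401 reads per library, of which between 12654233 and 15012743 fell on assigned genes. TFE3, on which reads of the TFE3 part of the transgene would be placed, stood at 66.9 and 69.0 CPM (reads per 1000000 after TMM scaling) in Doxy(-), against 367 and 322 CPM in Doxy(+), in the direction of the labels. Of 8 proximal tubule markers, GGT1 was the only one above 17 estimated counts in a library, SLC22A6 and SLC22A8 were at 0, LRP2 and AQP1 had at most 1 count, and the summed level was 71.0 and 71.0 CPM in Doxy(-) and 79.4 and 87.6 CPM in Doxy(+). The sum was nearly all GGT1, while the phosphate transporter SLC34A1 had 17 and 16 counts in Doxy(-) against 3 and 7 in Doxy(+). Of 6 markers of other nephron segments 3 were at 0, and their sum was 0.621 and 0.55 CPM in Doxy(-) against 3.27 and 2.24 CPM in Doxy(+), where NPHS1 (1 and 2 against 17 and 14.1 counts) and SLC12A3 (7 and 6.1 against 24.1 and 16 counts) made up most of it. Of 8 blood, endothelial and stromal markers, which were added because iron genes are also high in macrophages and red cells, HBB was at 0 and PTPRC between 5.1 and 8.9 counts. Their sum of 146 and 151 CPM in Doxy(-) and 192 and 191 CPM in Doxy(+) was nearly all CD68 (144 and 149 CPM against 190 and 189 CPM), a lysosomal protein. The part of these markers in the results below was not tested, and in bulk RNA a different share of a cell type and a different amount of RNA per cell cannot be told apart.

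Of the 10 genes, 8 were higher in both Doxy(+) libraries than in both Doxy(-) libraries, where 31.1% of all genes tested were. No gene of the 10 was lower in both (0 of 10, with 30.0% of all genes tested), and TFRC and IREB2 overlapped between the groups. The median log2 fold change of the 10 was 0.43, against 0.001 for all genes tested. Since the genes were picked with this contrast in view, nothing is read from these counts.

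**Figure D1:**
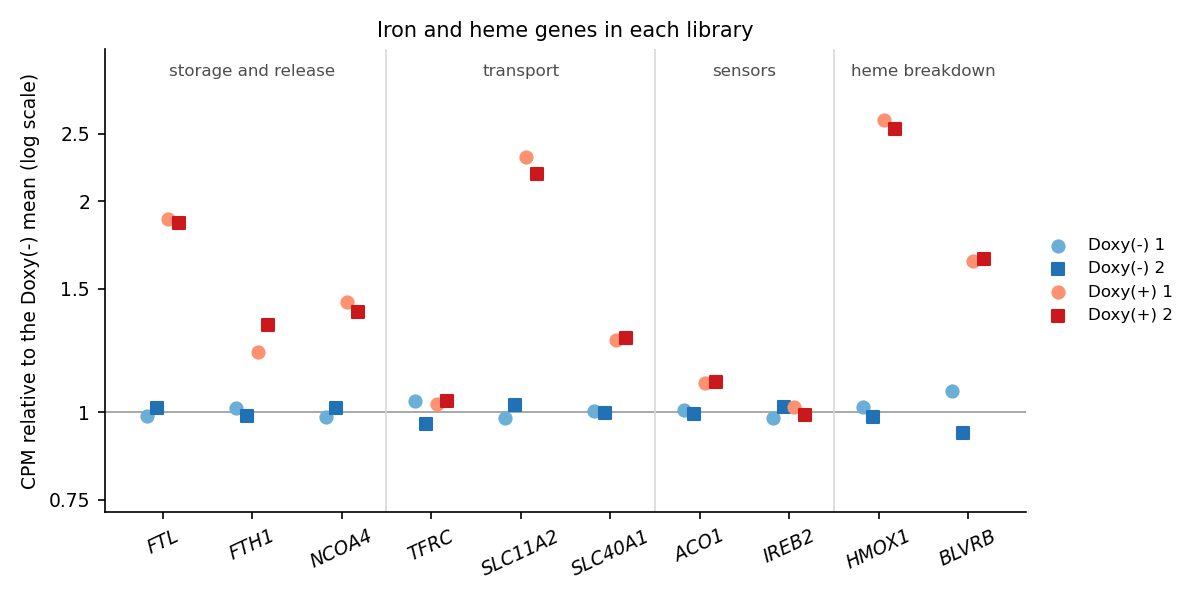
CPM of each of the 10 genes in each of the 4 libraries, divided by the mean of the 2 Doxy(-) libraries and drawn on a log scale; circles are libraries numbered 1 and squares those numbered 2, blue for Doxy(-) and red for Doxy(+). HMOX1 (2.58-fold), SLC11A2 (2.26-fold) and FTL (1.87-fold) stand highest in Doxy(+), while the points of TFRC and IREB2 overlap.

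First, the storage genes were examined. FTL (ENSG00000087086.15, chromosome 19, 48965309 to 48966879, plus strand), which encodes the L chain of ferritin that helps the iron core to form, stood at 2389 and 2453 CPM in Doxy(-), against 4571 and 4503 CPM in Doxy(+). The groups were far apart compared with the distance between libraries of one group. The means were 2421 ± 45.1 and 4537 ± 48.1 CPM (SD, n = 2 each), 1.87-fold higher in Doxy(+), with a log2 fold change of 0.91 (SE 0.0263).

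FTH1 (ENSG00000167996.16, chromosome 11, 61959718 to 61967634, minus strand) encodes the H chain, which oxidises the iron before storage. It had 849 and 827 CPM in Doxy(-) and 1022 and 1116 CPM in Doxy(+). Both Doxy(+) libraries lay above both Doxy(-) libraries, but the difference was smaller than for FTL and the Doxy(+) libraries were further apart. The log2 fold change was 0.35 (SE 0.0457), a 1.28-fold difference, and it ranged from 0.29 to 0.41 when single libraries were left out. Exons of FTH1 overlap those of BEST1 on the other strand, which had a mean of 1.03 CPM.

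Per length, the balance of the summed transcripts of FTL and FTH1 differed between the groups. On the TPM scale, which divides by transcript length, FTL had 4396 and 4484 in Doxy(-) and 8655 and 8502 in Doxy(+), and FTH1 had 1633 and 1611 against 2036 and 2183. The ratio of FTL to FTH1 in TPM was thus 2.69 and 2.78 in Doxy(-) and 4.25 and 3.89 in Doxy(+). The FTH1 sum includes transcripts not annotated as coding. FTH1-208, annotated for nonsense-mediated decay, held 34.4% and 29.7% of the FTH1 count in Doxy(-) and 32.3% and 36.4% in Doxy(+). The coding FTH1-202 held 49.2% and 55.9% against 55.8% and 45.0%. A ratio over coding transcripts alone was not computed. FTL transcripts made up 0.44% and 0.448% of all TPM in Doxy(-) and 0.866% and 0.85% in Doxy(+), and the rank of FTL among all genes moved from 17 and 14 to 6 in both Doxy(+) libraries. Together the chains reached 1.07% of all TPM in each Doxy(+) library, from 0.603% and 0.609%. These are RNA levels, and the ferritin shell itself was not measured.

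Ferritin genes have many processed copies in the genome, and a read may fit both a copy and its parent. The genes with a deposited transcript included 25 pseudogenes of FTH1 and 16 of FTL, of which 17 and 5 had any estimated count. The related protein-coding gene FTHL17 had 0. The FTH1 copies summed to 37.2 and 49.4 counts in Doxy(-) against 45.2 and 73.4 in Doxy(+), between 0.34% and 0.49% of the FTH1 count in the same library. The FTL copies summed to between 6.3 and 16.1 counts, at most 0.0274% of FTL. Only FTH1P15 (chromosome 6, 57004520 to 57004799) and FTH1P20 (chromosome 2, 180872867 to 180873414) averaged at least 10 counts. FTH1P15 had 11.1 and 16.2 counts in Doxy(-) against 18.1 and 24.2 in Doxy(+), and FTH1P20 had 9.3 and 9.8 against 11.7 and 14.3. With all copies added to their parents the log2 fold changes were 0.352 for FTH1, from 0.351, and 0.906 for FTL, as before. How the authors' quantifier divided reads between a parent and its copies before deposit cannot be seen in these values.

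NCOA4 (ENSG00000266412.6, chromosome 10, 46005088 to 46030623, minus strand), the receptor that delivers ferritin to autophagosomes, stood at 131 and 135 CPM in Doxy(-), against 191 and 185 CPM in Doxy(+). Every Doxy(+) value exceeded every Doxy(-) value. The log2 fold change was 0.50 (SE 0.041). A set of 6 further identifiers, which matched no gene of the annotation, repeated the length and counts of NCOA4 transcripts. They held 1683.4 and 1984.1 counts in Doxy(-) against 2451.1 and 2478.5 in Doxy(+), so that the level of NCOA4 with them was 261 and 270 CPM in Doxy(-) and 381 and 369 CPM in Doxy(+). The log2 fold change with these copies was also 0.50, so the level but not the difference depends on them.

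Next, the genes that bring iron into the cytosol or let it out were compared. TFRC (ENSG00000072274.14, chromosome 3, 196012511 to 196082153, minus strand), the transferrin receptor, had 462 and 428 CPM in Doxy(-) and 457 and 461 CPM in Doxy(+). Both Doxy(+) values lay between the Doxy(-) values. The log2 fold change of 0.05 (SE 0.0419) became -0.01 when Doxy(-) 2 was left out. In TPM the values were 136 and 134 against 146 and 148, which do not overlap, so the order of the groups for TFRC depends on the scale. TPM carry no TMM scaling, and short transcripts with few counts weigh more in them. The noncoding TFRC-205 (354 nt) had 0 and 17.5 counts in Doxy(-) against 9.5 and 24 in Doxy(+), or 0 and 6.64 against 4.27 and 10.3 TPM. The coding TFRC-201, with most of the count, had 118 and 101 TPM in Doxy(-) against 123 and 133 in Doxy(+). These values do not overlap either, so the order in TPM does not rest on TFRC-205. What sets it was not tested.

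SLC11A2 (ENSG00000110911.17, chromosome 12, 50979401 to 51028566, minus strand) encodes the divalent metal transporter that moves ferrous iron out of the endosome. It had 47.4 and 49.5 CPM in Doxy(-) and 112 and 106 CPM in Doxy(+). Each Doxy(+) library held over double the level of either Doxy(-) library. The means were 48.4 ± 1.48 and 109 ± 4.14 CPM, a log2 fold change of 1.17 (SE 0.0559). The value was 1.03 with length-scaled counts and 1.39 when only coding transcripts were summed.

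The difference in SLC11A2 lay mostly on 1 of its 25 annotated transcripts. SLC11A2-201, which starts at 51026384 and ends in an exon of 2444 nt, went from 408.1 and 461.5 estimated counts to 1080.9 and 1109.2, or from 66.8% and 63.5% of the gene to 74.9% and 77.7%. A second transcript, SLC11A2-204, which starts at 51009270 in a first exon of 154 nt, had 0 counts in both Doxy(-) libraries and 151.1 in each Doxy(+) library. In CPM it went from 0 to 11.7 and 11.3, at least 52.6-fold higher when 3 counts per library are taken as the most that a count of 0 allows, a limit that covers counting error only. Without SLC11A2-204 the gene stood at 47.4 and 49.5 CPM in Doxy(-), against 100 and 95.1 CPM in Doxy(+). SLC11A2-217, which starts further downstream, at 51009168 inside the same exon, had 12.7 and 12.2 counts in Doxy(-) against 16.7 and 10.8 in Doxy(+). Transcript estimates rest on how the quantifier divided shared reads, and the reads over this exon were not counted here.

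The bases before that first exon are shown because SLC11A2-204 was the only transcript of the 10 genes with 0 counts in both Doxy(-) libraries and over 100 in both Doxy(+) libraries. They are from RefSeq (GRCh38.p14, chr12:51009266-51009465, minus strand), and the capitals are the first 5 bases of the exon.
SLC11A2-204 upstream: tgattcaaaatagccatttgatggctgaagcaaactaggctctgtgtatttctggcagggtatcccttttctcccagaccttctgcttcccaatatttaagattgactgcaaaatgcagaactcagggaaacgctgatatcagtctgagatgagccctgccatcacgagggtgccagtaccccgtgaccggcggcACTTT
The stretch holds none of the 3 motifs searched for in the promoters of these genes. They were CACGTG, the E-box core, TCACGTGA, the longer form that TFE3 and its relatives prefer and that contains CACGTG, and TGACNNNGC, the core bound by NRF2 with small MAF proteins. Both strands were searched in RefSeq windows from 250 bases before to 50 bases after a start. Of 35116 windows, 7.26% held CACGTG, 0.98% TCACGTGA and 13.3% TGACNNNGC. The 13 windows of the 8 genes with an entry (the table has none for HMOX1 and FTH1) held 0, 0 and 1 matches. The match lay in a window of NCOA4, 23 bases after the start (GRCh38.p14, chr10:46019960-46019984, minus strand), and its capitals mark the motif.
NCOA4: ctgaaagcTGACAGTGCtctaactg
A window without a match says only that these letters are not in it, and distal elements were not searched.

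**Figure D2:**
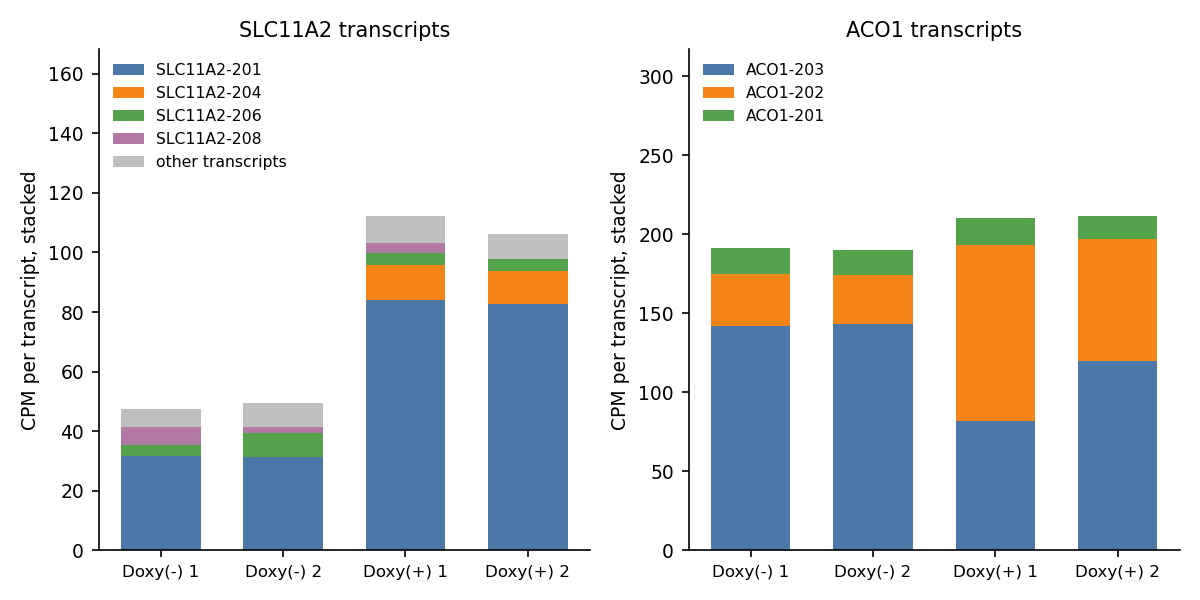
CPM of each transcript of SLC11A2 (left) and ACO1 (right) in each library, stacked so that the bar height is the level of the gene; bars start at 0. SLC11A2-204 appears in the Doxy(+) bars only, at 11.7 and 11.3 CPM, while in ACO1 ACO1-202 takes up a larger part of bars of nearly equal height.

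SLC40A1 (ENSG00000138449.11, chromosome 2, 189560590 to 189583758, minus strand), the iron exporter ferroportin, was barely detected. It had 31 and 35 counts in Doxy(-) against 39 and 41 in Doxy(+), or 2.4 and 2.38 against 3.03 and 3.05 CPM. The CPM values did not overlap, but the SE of 0.24 on a log2 fold change of 0.34 shows how little such counts can resolve. In TPM the values were 1.23 and 1.34 against 1.76 and 1.34, and there Doxy(-) 2 and Doxy(+) 2 were alike.

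The iron regulatory proteins are encoded by ACO1 (ENSG00000122729.19, chromosome 9, 32384603 to 32454769, plus strand), which is also the cytosolic aconitase, and IREB2 (ENSG00000136381.13, chromosome 15, 78437431 to 78501453, plus strand). ACO1 had 192 and 190 CPM in Doxy(-) and 210 and 211 CPM in Doxy(+). The groups were separate, and the log2 fold change was small, at 0.14 (SE 0.0336). IREB2 had 58.5 and 60.6 CPM in Doxy(-) and 60.7 and 59.0 CPM in Doxy(+), a log2 fold change of 0.01 (SE 0.0547), and the groups overlapped.

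On the TPM scale IREB2 gave another order, with 17 and 19.2 in Doxy(-) and 23.1 and 21.4 in Doxy(+), and its log2 fold change was 0.28 with limma on log2(TPM + 1) and 0.26 with length-scaled counts. The coding transcript IREB2-201, with between 84.1% and 87.5% of the count, had nearly level TPM values of 11.3, 11.9, 12 and 12.1 in Doxy(-) 1, Doxy(-) 2, Doxy(+) 1 and Doxy(+) 2. A short transcript, IREB2-204 (268 nt), had 0 counts in Doxy(-) against 4.4 and 5.8 in Doxy(+), which the division by length turned into 2.98 and 3.77 TPM. For ACO1 the transcripts shifted while the gene hardly moved. ACO1-203 held 74.3% and 75.2% of the gene in Doxy(-) and 38.9% and 56.7% in Doxy(+), and ACO1-202 held 17.2% and 16.4% against 52.7% and 36.6%. These transcripts have the same number of exons (22) and differ at their ends, with a first exon of 133 nt in ACO1-203 and 116 nt in ACO1-202, so few reads can tell them apart.

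Heme breakdown was then examined. HMOX1 (ENSG00000100292.18, chromosome 22, 35380361 to 35394214, plus strand), the inducible heme oxygenase that opens the heme ring and frees its iron, stood at 42.0 and 40.6 CPM in Doxy(-), against 108 and 105 CPM in Doxy(+). The distance between the groups was many times that between replicate libraries. The means were 41.3 ± 0.927 and 106 ± 1.75 CPM, 2.58-fold higher in Doxy(+), and the log2 fold change of 1.37 (SE 0.052) was the largest of the 10, except that SLC11A2 (1.394) passed HMOX1 (1.365) when only coding transcripts were summed. It rested on 540.8 and 597.3 counts in Doxy(-) against 1386.5 and 1412.7 in Doxy(+), of which HMOX1-201 carried between 99.1% and 100% in each library. HMOX1 ranged from 1.34 to 1.39 over 13 other ways of computing its log2 fold change.

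BLVRB (ENSG00000090013.11, chromosome 19, 40447765 to 40465764, minus strand) encodes biliverdin reductase B, a reductase of flavins and of biliverdin isomers. It had 18.1 and 15.8 CPM in Doxy(-) and 27.8 and 28.0 CPM in Doxy(+). The groups did not overlap, and the log2 fold change was 0.72 (SE 0.0964). It was 0.62 without Doxy(-) 2 and 0.82 without Doxy(-) 1.

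By the likeness of their pattern over the 4 libraries, measured as the Euclidean distance between log2 CPM centred on each gene's mean, the genes nearest to HMOX1 were GLMP (0.0333), ALOXE3 (0.0471) and ERBB3 (0.0581). GLMP, a lysosomal membrane glycoprotein, had 53.8 and 51.8 CPM in Doxy(-) and 134 and 132 CPM in Doxy(+). ERBB3, a receptor of the EGFR family, had 4.26 and 3.93 against 11 and 11 CPM. With 4 libraries in 2 groups, any gene with a like fold change and close replicates comes near.

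The levels of the 10 genes per length spanned more than 3 orders of magnitude. In Doxy(-) the order by TPM was FTL (4440 ± 62.3), FTH1 (1622 ± 15.2), TFRC (135 ± 0.901), ACO1 (74.5 ± 0.719), NCOA4 (65.5 ± 0.0256), HMOX1 (34.7 ± 1.51), BLVRB (31.5 ± 3.21), SLC11A2 (30.0 ± 0.477), IREB2 (18.1 ± 1.52) and SLC40A1 (1.28 ± 0.0775), each with n = 2. The values of HMOX1 (35.7 and 33.6), BLVRB (33.8 and 29.2) and SLC11A2 (30.3 and 29.6) ran into each other, BLVRB overlapping both neighbours. In Doxy(+) NCOA4 (95.9 ± 2.36) and HMOX1 (91.6 ± 1.61) stood above ACO1 (85.2 ± 0.551), and SLC11A2 (62.6 ± 3.11) stood above BLVRB (52.8 ± 0.594). The level of NCOA4 leaves out the repeated identifiers, which held a further 65.5 TPM in Doxy(-) and 95.7 TPM in Doxy(+). With them NCOA4 would come close to TFRC in Doxy(-) and lie above it in Doxy(+).

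**Figure D3:**
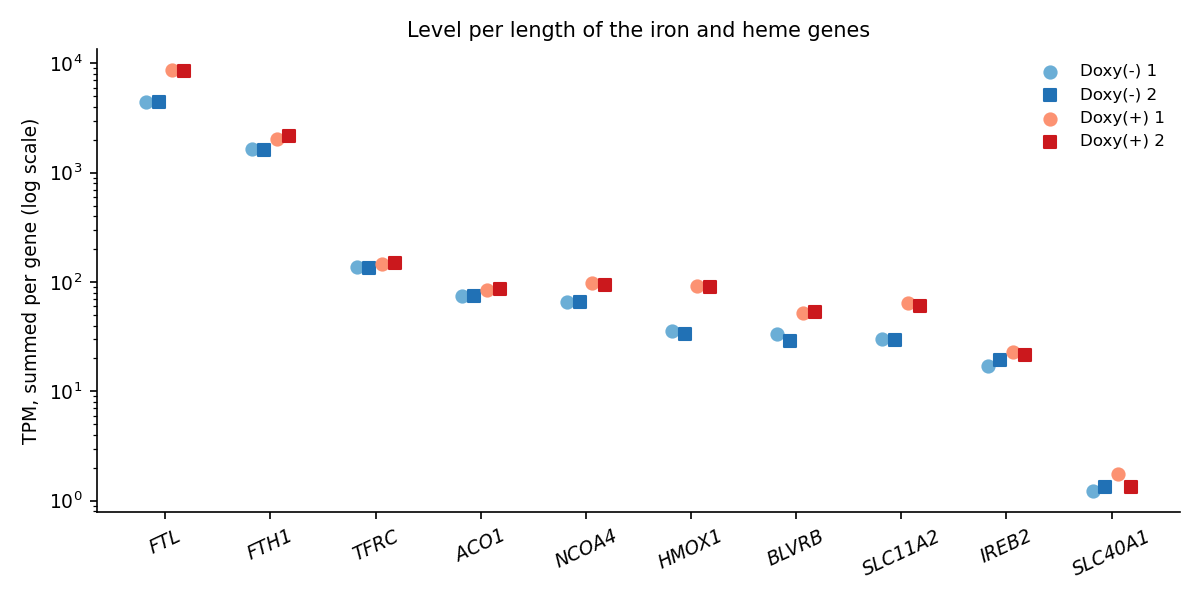
TPM summed per gene in each library on a log scale, with the genes ordered by their Doxy(-) mean; blue is Doxy(-) and red is Doxy(+), circles are libraries numbered 1 and squares those numbered 2. FTL and FTH1 lie far above the other genes in all 4 libraries, and SLC40A1, at 1.23 to 1.76 TPM, lies far below them.

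To place these genes in their pathway, 68 other genes of iron and heme handling were listed by function, of which 63 were tested. With edgeR's quasi-likelihood test, at a Benjamini-Hochberg adjusted p under 0.05 over all genes, 10 of the 63 were higher in Doxy(+) (15.9%, with 9.76% of all genes tested) and 3 were lower (4.76%, with 9.53% of all genes tested). The other 50 were not called, and the median log2 fold change was 0.01. Past a log2 fold change of 1 as well were 2 higher genes of the 63, STEAP1 and MCOLN1, where 1.5% of all genes tested were. Past that limit in the other direction were 0 lower genes of the 63 by edgeR, where 0.479% of all genes tested were. DESeq2 and limma also put 0 lower genes there. At an unadjusted p under 0.05 each of these tools put 1 lower gene past that limit. The count of higher genes fell to 2 without Doxy(+) 1 and to 3 without Doxy(+) 2, and DESeq2 called 4.

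Of the 13 tested genes of iron uptake and ferric reduction, 4 rose (30.8%, with 9.76% of all genes tested) and 1 fell (7.69%, with 9.53%). The median log2 fold change of this list was 0.32. MCOLN1, the lysosomal channel through which iron can leave that compartment, rose from 13.5 and 13.9 CPM to 31.5 and 32.4 CPM (a log2 fold change of 1.22 with an SE of 0.0818, edgeR adjusted p 0.000447), and it was called in all 12 alternatives. Its exons overlap those of PNPLA6 (a mean of 105 CPM) on the same strand. STEAP1, of a family of metalloreductases, rose from 2.0 and 1.7 to 4.04 and 4.96 CPM (a log2 fold change of 1.28 with an SE of 0.256, edgeR adjusted p 0.0194). It was called in 7 of 12 alternatives, not with DESeq2 or length-scaled counts, and not without Doxy(+) 1, Doxy(+) 2 or Doxy(-) 2. CYBRD1, a ferric reductase, rose from 121 and 126 to 156 and 152 CPM (log2 fold change 0.32, edgeR adjusted p 0.00443), and was called in 10 of 12. LCN2 rose by 0.38 and STEAP3, the reductase of the transferrin cycle, fell by 0.61 on the log2 scale, both outside the rule for named genes and chosen after their values were seen. The call of LCN2 was lost with DESeq2, with length-scaled counts and without Doxy(+) 1, Doxy(+) 2 or Doxy(-) 1. That of STEAP3 was lost with limma on log2(TPM + 1) and in no fit that left out a library.

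In the remaining lists most genes were not called. Of all genes tested 9.76% were called higher and 9.53% lower. Iron storage, chaperones and export had 14.3% higher and 0% lower, and heme synthesis had 12.5% each way. Heme breakdown and transport had 10% and 0%, and mitochondrial iron and iron-sulfur clusters had 12% and 4%. Of 7 tested genes of iron storage, chaperones and export 1 rose, GLRX3, at a log2 fold change of 0.19 (edgeR adjusted p 0.0334). It was called in 6 of 12 alternatives, not with DESeq2, length-scaled counts or limma, and not without Doxy(+) 1, Doxy(+) 2 or Doxy(-) 2. Of 8 heme synthesis genes ALAD rose, at 0.32 (edgeR adjusted p 0.043), and PPOX fell, at -0.41 (edgeR adjusted p 0.0471). They were called in 3 and 4 of 12 alternatives, not with DESeq2, length-scaled counts or limma, and in no fit that left out a library. Exons of PPOX overlap those of B4GALT3 (a mean of 41 CPM) on the other strand. Of 10 genes of heme breakdown and transport 1 rose, LRP1, a receptor that takes up heme bound to hemopexin, at 0.27 (edgeR adjusted p 0.00736, called in 9 of 12 and not without Doxy(+) 1). Exons of LRP1 overlap those of STAT6 (a mean of 290 CPM) on the other strand. HMOX2, the constitutive heme oxygenase, stood at 42.8 and 46.4 CPM in Doxy(-) and 48.4 and 46.1 CPM in Doxy(+), and BLVRA, the main biliverdin reductase, at 29.2 and 28.2 against 27.5 and 28.6 CPM. Neither was called, and both are named here, after their values were seen, as the counterparts of HMOX1 and BLVRB. Of 25 genes of mitochondrial iron and iron-sulfur clusters 3 rose and 1 fell. SLC25A37, the mitochondrial iron importer mitoferrin-1, fell from 137 and 144 to 96.3 and 94.5 CPM (a log2 fold change of -0.55 with an SE of 0.0459, edgeR adjusted p 0.000898, called in all 12 alternatives), and ABCB8 rose by 0.39 (edgeR adjusted p 0.0157, called in 8 of 12 and not without Doxy(+) 1 or Doxy(+) 2).

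The genes that control the promoters of HMOX1 and the ferritins were also listed. NRF2, encoded by NFE2L2, activates them with small MAF partners, KEAP1 holds NRF2 back, and BACH1 is a heme-sensing repressor of the same sites. NFE2L2 had 141 and 153 CPM in Doxy(-) and 143 and 154 CPM in Doxy(+), and KEAP1 had 98.6 and 92.1 against 85.5 and 88.6 CPM, and neither was called (edgeR adjusted p 0.883 and 0.157). BACH1 rose from 36.1 and 42.1 to 55.9 and 52.6 CPM (a log2 fold change of 0.47 with an SE of 0.0858, edgeR adjusted p 0.0143, called in 9 of 12 alternatives and not without Doxy(+) 1). MAFG rose by 0.40 (edgeR adjusted p 0.00513, called in all 12) and MAFF by 0.38 (edgeR adjusted p 0.0137, called in 7 of 12). The call of MAFF was lost with DESeq2, length-scaled counts and limma, and without Doxy(+) 1 or Doxy(+) 2. MAFK, at -0.18, was not called (edgeR adjusted p 0.187). Exons of NFE2L2 overlap those of HNRNPA3 (a mean of 602 CPM) and AGPS (147 CPM) on the other strand. Those of MAFG overlap SIRT7 (41.1 CPM) on the same strand. Those of MAFF and MAFK overlap PLA2G6 (10.7 CPM) and TMEM184A (21.6 CPM) on the other strand.

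Of 8 NRF2 targets outside iron handling 1 rose (12.5%, with 9.76% of all genes tested), 2 fell (25%, with 9.53%) and 5 were not called, with a median log2 fold change of -0.13. OSGIN1 rose from 12.8 and 12.8 to 21.9 and 23.4 CPM (log2 fold change 0.82, edgeR adjusted p 0.00278, called in all 12 alternatives), and its exons overlap those of MLYCD on the same strand, which had a mean of 10.1 CPM. GCLM, a subunit of the enzyme that starts glutathione synthesis, fell from 60.9 and 65 to 49.2 and 49.7 CPM (log2 fold change -0.35, edgeR adjusted p 0.0107, called in 8 of 12 and not without Doxy(+) 1 or Doxy(+) 2), and SLC7A11, the cystine importer, fell from 29.3 and 30.4 to 22.6 and 19.9 CPM (log2 fold change -0.49, edgeR adjusted p 0.0144, called in 10 of 12 and not without Doxy(+) 2). Of the regulators and targets together, 6 of 14 were called (19.3% of all genes tested were called in either direction), and 3 without Doxy(+) 1 and also without Doxy(+) 2. NRF2 protein was not measured.

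**Figure D4:**
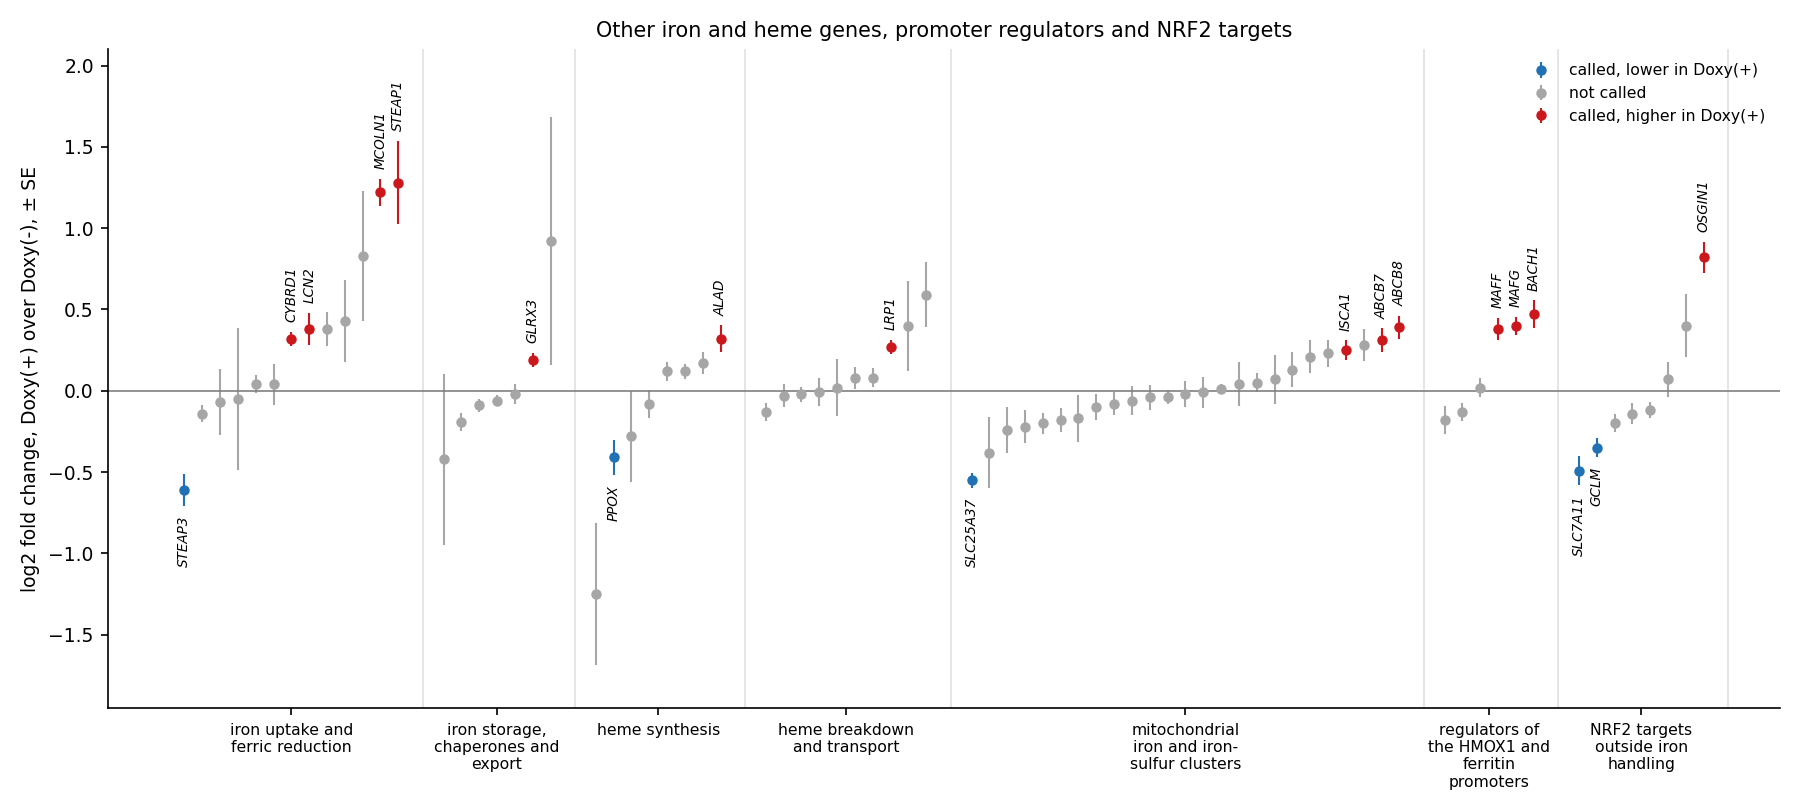
Log2 fold change of Doxy(+) over Doxy(-) with its SE for each tested gene of the 7 functional lists, sorted within a list; red points were called higher and blue points called lower by edgeR at an adjusted p under 0.05, grey points were not called, and called genes are labelled. MCOLN1 (1.22) and STEAP1 (1.28) are the only called points past 1 in size, and most grey points lie near 0.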

How the data were processed

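RNA from 4 cultures of HA-PRCC-TFE3-inducible HK-2 cells was measured with a stranded TruSeq mRNA kit. The study's methods describe trimming, STAR alignment to hg38, RSEM and DESeq2, and the submitters' processing notes list Trim Galore 0.6.6, cutadapt 2.5 and STAR 2.7.9a. The deposited tables instead have the columns of kallisto, over 180253 Ensembl transcripts. The quantifier, its release and its use of strand are not given in the sources used here. The authors deposited estimated counts per transcript, which are expected counts, not whole and not normalized, and TPM values, which sum to 1000000 per library. Transcripts were joined to genes through GENCODE 44 (83.6% of identifiers), and counts were summed per gene. Identifiers without a gene held between 9.66% and 9.89% of a library's counts and were left out.

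Sums were rounded and fitted with edgeR 4.0.16 (R 4.3.3, TMM, filterByExpr, glmQLFit and glmQLFTest, group as the only term), two-sided, with Benjamini-Hochberg adjustment over all 13569 genes. The procedure was tested on simulated data. Each SE is the one implied by the F statistic. Replicates were separate libraries by their counts, with a chi-square per degree of freedom of 4.19 in Doxy(-) and 2.98 in Doxy(+). The 10 genes, the lists and the tests were chosen with earlier results of these data known, so the 10 genes received no p. Named were the 10 genes, pseudogenes averaging 10 counts, the 2 called genes with the smallest p and those past a log2 fold change of 1 in each of 5 lists, all 6 regulators, the 3 NRF2 targets with the smallest p, TFE3 and the 3 genes nearest to HMOX1. Alternatives were RLE size factors, DESeq2 1.42.0, limma 3.58.1 on log2(TPM + 1), length-scaled counts, other filters, added copies, single libraries left out and a replicate block.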

Additional observations from a re-analysis of the deposited data

Results flagged for a closer look

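Identifiers that the comparison did not use held the difference of NCOA4 a second time. The 6 identifiers that matched no gene and repeated the length and counts of NCOA4 transcripts held a mean of 2464.8 estimated counts in Doxy(+), against 1833.8 in Doxy(-). They lie outside the gene sums on which the comparison rests, and their count in Doxy(+), not scaled for depth, was above that of the control libraries. Since they were picked for having the counts of NCOA4 transcripts, their difference repeats that of NCOA4 and is not a further result. The groups of 2 libraries are too small for a test of single outlying libraries.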

How the results depend on the processing

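The log2 fold changes of HMOX1, FTL, FTH1, SLC40A1, SLC11A2, NCOA4, ACO1 and BLVRB were positive in every alternative run. Those of TFRC (-0.01 to 0.12) and IREB2 (-0.02 to 0.28) were positive in 12 and 10 of 13 alternatives, and that of IREB2 was highest with limma (0.28) and length-scaled counts (0.26). The 10 wider genes that were higher became 4 with DESeq2, 1 with length-scaled counts, 3 with limma on log2(TPM + 1) and 2 past a log2 fold change of 1, and between 2 and 8 when single libraries were left out. The 3 lower ones became 1 with limma and 0 past a log2 fold change of 1, and between 2 and 4 with single libraries left out. The 6 called regulators and NRF2 targets became 3 with length-scaled counts and 2 with limma, and between 3 and 7 with single libraries left out. Leaving out a library removes samples and the fold change limit is stricter by construction. For DESeq2, limma and length-scaled counts the cause was not tested.

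With a replicate block for the library number, 9 wider genes were higher, 2 were lower and 6 regulators and NRF2 targets were called. The labels do not say what the number marks, and the deviations of same-numbered libraries correlated at -0.22 across 9609 genes, so the block is given here only. A crossed replicate block, chosen after seeing the data, gave 8, 3 and 6.

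With 2 libraries per group each SD is itself imprecise, and SLC40A1, with at most 41 counts, is limited by depth.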
